A study of Triticum aestivum with 2 samples.

Results

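The large subunit of the chloroplast ribosome, the 50S subunit, was represented by 7 probe sets for 4 proteins. L2 was read by 4 probe sets, and L14, L23 and L33 were read by 1 each. They were selected on signal: the probe sets were taken by their putative function from the study's list of 110 sense-antisense transcript pairs, which holds probe sets with a Present call and an expression value above the spiked-in control bioB in both the WT and the 3'IVT assay. None came from the second list, of 80 potentially antisense-specific probe sets. The 7 were thus chosen among 61115 wheat probe sets for being bright on both arrays, and their signals are a description. They do not add up to 7 independent readings, since 6 of them belong to 1 design cluster (TaAffx.128896, the shared first part of the probe set name) and the L33 probe set belongs to another (TaAffx.6593).

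Both arrays were hybridized with target made from the same RNA of the wheat line 'Chinese Spring', a mixture at equal concentrations from 5 tissues, namely germinated seed, shoot, flag leaf, and spikes before and after anthesis. In the WT assay, which the labels call antisense, random primers and a second cycle of cDNA synthesis gave labelled cDNA of the same orientation as the RNA. In the 3'IVT assay, which they call sense, oligo(dT) priming and in vitro transcription gave labelled cRNA of the opposite orientation. With 1 array per assay there is no spread between samples and no test was made, and the number of arrays limits the precision. Because the tissues were pooled, a signal cannot be assigned to one of them, and fewer cells with a transcript cannot be told apart from less of it per cell. The RUBISCO small subunit probe sets Ta.2752.3.S1_x_at and Ta.2752.2.S1_x_at are both listed as pairs. They had WT log2 signals of 16.19 and 16.82 and 3'IVT log2 signals of 15.57 and 15.38. A further one, TaAffx.52923.1.S1_at of the antisense-specific list, had 16.07 in the WT assay and 5.99 in the 3'IVT assay. As the lists were drawn on signals of these arrays, the values are no check for green tissue. No markers of seed or spike tissue were examined.

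Chloroplasts translate the proteins of their own genome on ribosomes of bacterial type. Part of the ribosomal proteins is encoded in the plastid and part in the nucleus, and L2, L14, L23 and L33 are plastid-encoded in grasses. L2 lies near the peptidyl transferase centre, where peptide bonds form, L23 lies at the exit of the peptide tunnel, and L14 lies at the face that meets the small subunit. L33 is a small protein that tobacco can do without under standard growth but needs to recover from cold. In grass plastid genomes rpl23 and rpl2 are neighbours in the inverted repeat, rpl14 belongs to the same bacterial-type gene cluster in the single-copy region, and rpl33 lies elsewhere, beside rps18.

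Signals are given as deposited, as their log2, and as the log2 signal over the lowest bioB probe set of the same array, called the excess. The bioB signal taken as threshold was 37298 in the WT assay (AFFX-BioB-5_at, log2 15.19) and 828 in the 3'IVT assay (AFFX-Tae-r2-Ec-bioB-5_at, log2 9.69). The median excess of all wheat probe sets was -7.18 in the WT assay and -3.07 in the 3'IVT assay. The spiked-in controls bioB, bioC, bioD and creX, added in this rising order, had median excesses of 0.96, 2.10, 3.31 and 4.43 in the WT assay and of 0.44, 1.91, 3.80 and 5.41 in the 3'IVT assay. Probe sets for the same region of one control differed with an SD of 0.26 in the WT assay and of 0.32 in the 3'IVT assay (log2, 27 probe sets of 9 regions). This SD is used below for scale. It leaves out differences between regions of one control. Across regions, the 9 bioB probe sets ranged from 15.19 to 16.6 log2 in the WT assay and from 9.69 to 10.53 in the 3'IVT assay. Nor does the SD cover differences between probe sequences, so a higher signal at one probe set does not show a more abundant transcript than at another.

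The probe sets of L2 included the highest and the lowest of the 7 in the WT assay, and the highest in the 3'IVT assay, where L33 and L14 lay below all of them. Its antisense-oriented probe set TaAffx.128896.8.A1_at had the highest WT signal of the 7, with 405410 in the WT assay and 10769 in the 3'IVT assay (log2 18.63 and 13.39). TaAffx.128896.22.S1_s_at, whose suffix marks probes shared between transcripts, had 237670 in the WT assay and 9702 in the 3'IVT assay (17.86 and 13.24). Both thus lay above the bioC median on both arrays, and in the WT assay the first also lay above bioD. TaAffx.128896.2.S1_at was dimmer on both arrays, with 91576 in the WT assay and 2877 in the 3'IVT assay (16.48 and 11.49), between bioB and bioC. The fourth probe set, TaAffx.128896.3.S1_at, had the lowest WT signal of the 7 and the highest 3'IVT signal, with 64167 in the WT assay and 21878 in the 3'IVT assay (15.97 and 14.42). It lay below the bioB median in the WT assay and between bioD and creX in the 3'IVT assay. The most distant L2 probe sets were 2.66 log2 units apart in the WT assay and 2.93 in the 3'IVT assay. This is 10.3 and 9.06 times the SD between control probe sets of one region, which leaves out differences between regions.

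**Figure D1:**
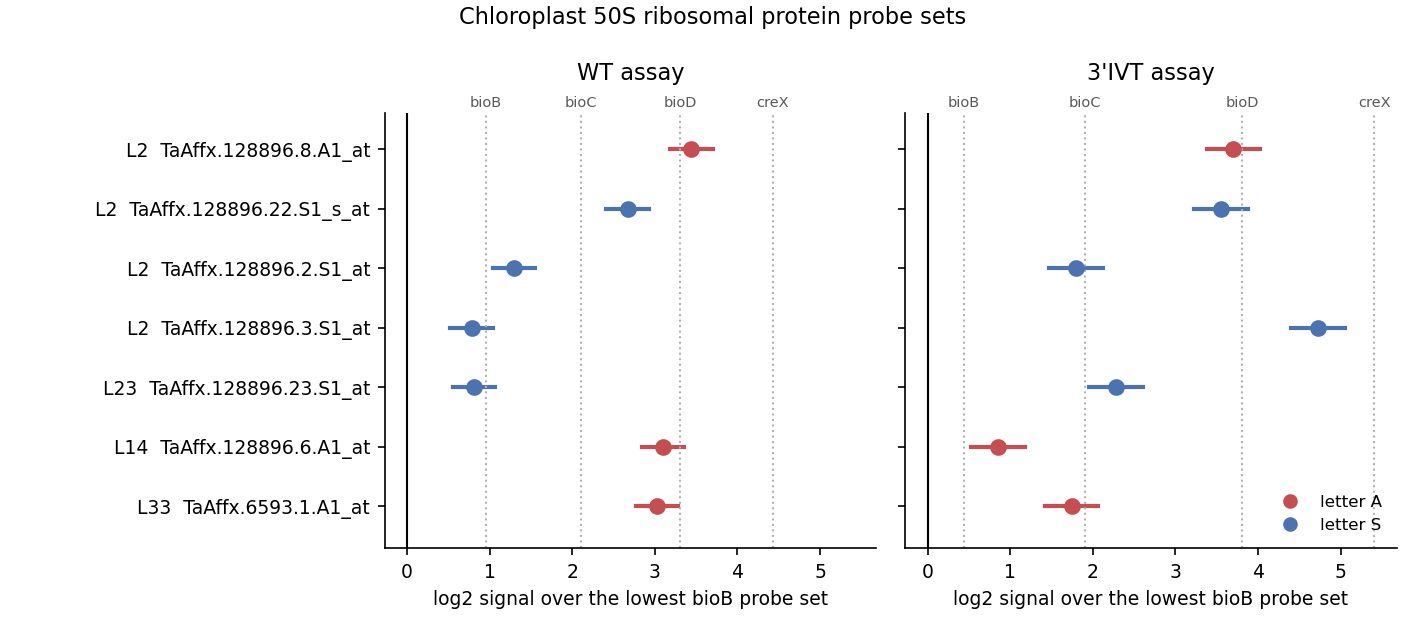
Log2 signal over the lowest bioB probe set (solid line at 0) of the 7 probe sets for chloroplast 50S ribosomal proteins, in the WT assay (left) and the 3'IVT assay (right). Each panel is 1 array and each point is 1 probe set. Bars show the SD between control probe sets of one region (0.26 and 0.32 log2 units), and dotted lines are the medians of the spiked-in controls. TaAffx.128896.3.S1_at, an L2 probe set, was lowest in the WT assay and highest in the 3'IVT assay.

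L23 and L14 were each read by 1 probe set of the same design cluster and differed in opposite ways on the 2 arrays. The L23 probe set, TaAffx.128896.23.S1_at, had signals of 65438 in the WT assay and 4014 in the 3'IVT assay (log2 16.00 and 11.97). The L14 probe set, the antisense-oriented TaAffx.128896.6.A1_at, had 319220 in the WT assay and 1495 in the 3'IVT assay (log2 18.28 and 10.55). The L14 signal was thus 2.29 log2 units above that of L23 in the WT assay and 1.42 below it in the 3'IVT assay. The L33 probe set, TaAffx.6593.1.A1_at of the separate design cluster, had 303580 in the WT assay and 2769 in the 3'IVT assay (log2 18.21 and 11.44). L14 and L33 were therefore close in the WT assay, between the bioC and bioD medians, and both lay between bioB and bioC in the 3'IVT assay.

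From high to low, the WT order was L2 (8.A1), L14, L33, L2 (22.S1_s), L2 (2.S1), L23 and L2 (3.S1), with the probe sets of L2 given by the end of their names. L14 and L33 were 0.07 log2 units apart and L23 and the last L2 probe set 0.03, both less than the SD of 0.26, whereas the other neighbours differed by 0.34 to 1.38. In the 3'IVT assay the order was L2 (3.S1), L2 (8.A1), L2 (22.S1_s), L23, L2 (2.S1), L33 and L14. There the 8.A1 and 22.S1_s probe sets of L2 were 0.15 apart and L2 (2.S1) and L33 0.06, less than the SD of 0.32, and the other neighbours differed by 0.48 to 1.27. Across the 7 probe sets the WT and 3'IVT signals had a Spearman rho of -0.36, beside -0.43 over all 110 listed pairs and 0.28 over all wheat probe sets. These are descriptions over probe sets of the same pair of arrays, and 6 of the 7 share a cluster. Like the listed pairs, the 7 were chosen for high signals in both assays.

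All 7 probe sets passed the WT threshold, which 0.367% of the 61115 wheat probe sets passed, and all 7 passed the 3'IVT threshold, which 17.3% passed. Above both thresholds were 0.208% of wheat probe sets. The study's list used the same contrast on these arrays, so nothing is read from these counts. With the highest bioB probe set as threshold, 4 of the 7 were above both (L14, L33, L2 8.A1 and L2 22.S1_s). In the 3'IVT assay L14 passed it by only 0.01 log2 units, less than the SD of 0.32. The median excess of the 7 was 2.67 in the WT assay (0.78 to 3.44) and 2.28 in the 3'IVT assay (0.85 to 4.72). In the WT assay the 50S probe sets ranked between 53 and 154 among all wheat probe sets, and in the 3'IVT assay between 221 and 6702. Among the 110 listed pairs their WT ranks were 30 (L2, 8.A1), 36 (L14), 38 (L33), 42, 70 and 86 (the other L2 probe sets) and 84 (L23).

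**Figure D2:**
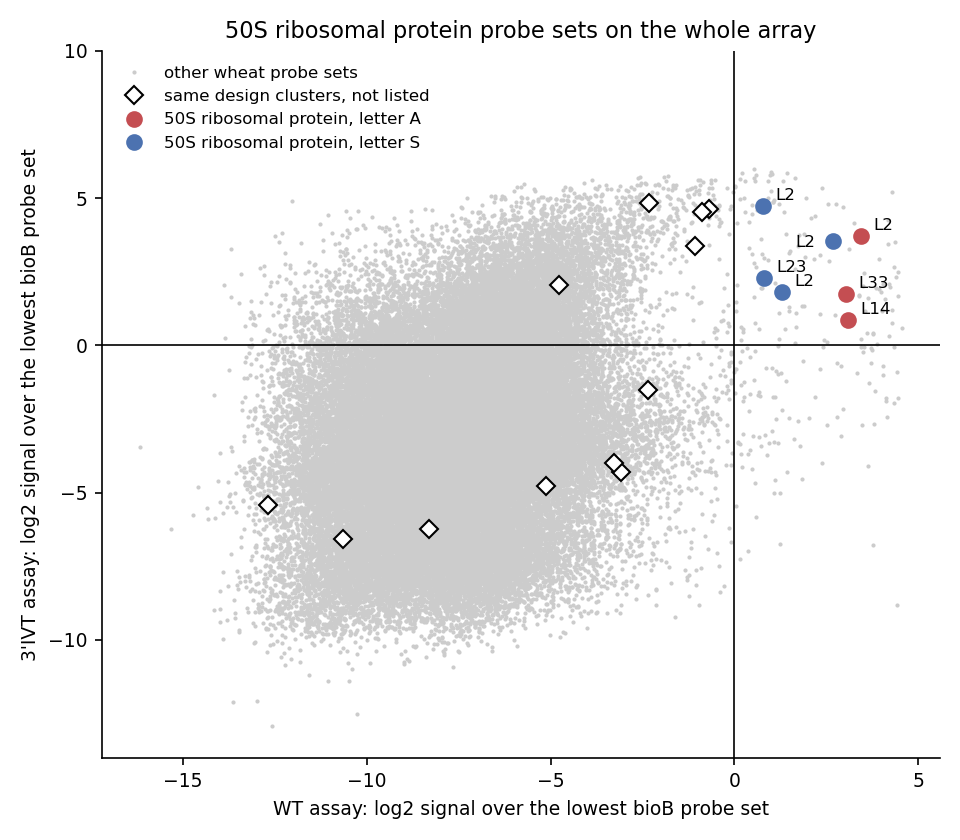
Excess over the lowest bioB signal, WT assay (x axis) against 3'IVT assay (y axis), both in log2 units, for all wheat probe sets (grey), the 7 listed 50S ribosomal protein probe sets (filled circles, coloured by orientation letter) and the 12 other probe sets of their design clusters (open diamonds). Lines mark the thresholds at 0. No open diamond lies to the right of the WT threshold, as the lists were drawn from probe sets bright in the WT assay.

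The design clusters hold 12 further probe sets that the study did not list, 11 in TaAffx.128896 and 1 in TaAffx.6593. None of the 12 was above the WT threshold, which 0.367% of wheat probe sets passed. Above the 3'IVT threshold, which 17.3% passed, were 5 of the 12. The study's lists took probe sets that were bright in the WT assay, so that the remaining 12 are dim there follows largely from the selection. Cluster TaAffx.128896 as a whole (17 probe sets) thus held 6 above both thresholds, 5 above that of the 3'IVT assay alone and 6 above neither. Across the 17 probe sets the WT and 3'IVT signals had a Spearman rho of 0.62, again as a description, since they share a cluster and the same pair of arrays.

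The 5 unlisted probe sets that passed only the 3'IVT threshold had 3'IVT log2 signals between 11.73 and 14.51, beside 11.49 to 14.42 for the L2 probe sets. TaAffx.128896.1.S1_s_at had 12.86 in the WT assay and 14.51 in the 3'IVT assay, where it was the brightest of the cluster. TaAffx.128896.20.S1_s_at had 14.50 and 14.33, TaAffx.128896.21.S1_x_at had 14.29 and 14.23, and TaAffx.128896.15.S1_s_at had 14.12 and 13.07. The first of these 3 came nearest to the WT threshold from below, at an excess of -0.69, against 0.78 for the dimmest member, TaAffx.128896.3.S1_at. In the 3'IVT assay the dimmest member was L14 with an excess of 0.85, and the nearest probe set below the threshold was TaAffx.6593.2.S1_at with -1.53. The fifth, TaAffx.128896.17.S1_s_at, had 10.40 in the WT assay and 11.73 in the 3'IVT assay. It was the only probe set of both clusters with a gene symbol in the platform annotation, LOC100049018, whose synonym is rbcl, the RUBISCO large subunit. Grass plastid genomes carry a non-functional copy of rpl23 beside rbcL.

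All 5 carry a suffix for probes that are shared between transcripts or may cross-hybridize (_s or _x). Of the 7 probe sets of both clusters with such a suffix, 1 passed both thresholds, 5 passed that of the 3'IVT assay alone and 1 passed neither. Of the 12 without it, 6 passed both and 6 passed neither. Those that passed both are the 7 listed members, chosen for high signals on both arrays, so nothing is read from this split. Over the array 12704 of the 61115 wheat probe sets carried a suffix of this kind (_s, _x or _a). Their share above the thresholds is not given here. Of the same design sequence as TaAffx.128896.20.S1_s_at, TaAffx.128896.20.S1_at had log2 signals of 2.51 in the WT assay and 4.27 in the 3'IVT assay. Both lie below the highest reporter gene, a gene foreign to wheat, on the same array (11.76 and 7.02), so no difference from its partner is given. For the sequence TaAffx.128896.13 both versions were dim, at 6.87 and 4.55 in the WT assay and 3.47 and 3.12 in the 3'IVT assay for the _x and the plain version.

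The other unlisted probe sets included TaAffx.128896.7.S1_at (WT log2 12.10 and 3'IVT log2 5.39) and the A-lettered TaAffx.128896.19.A1_at (11.91 and 5.69) and TaAffx.128896.16.A1_at (10.06 and 4.91). Reporter genes were read by 63 probe sets, without 1 that was above both thresholds. At or below the highest of them were 5 of the 12 unlisted probe sets in the WT assay and 6 in the 3'IVT assay. In the L33 cluster, the unlisted sense-oriented TaAffx.6593.2.S1_at had 12.82 in the WT assay and 8.16 in the 3'IVT assay, above the reporter genes and below bioB on both arrays. The listed A-lettered L33 probe set was 5.39 log2 units above it in the WT assay and 3.27 above it in the 3'IVT assay.

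**Figure D3:**
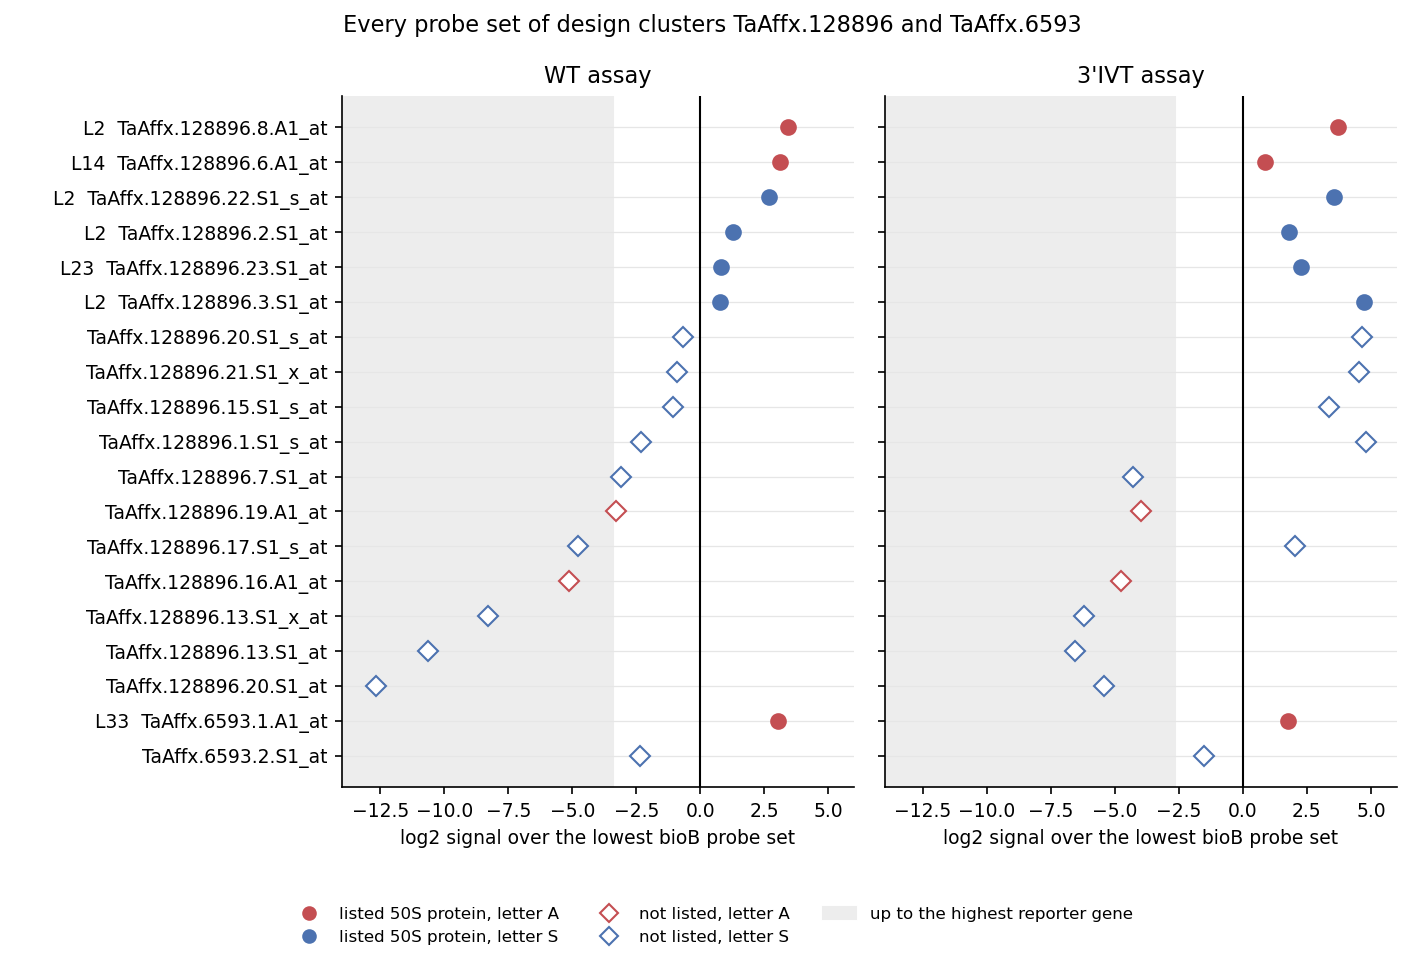
Excess over the lowest bioB probe set (log2) of all 19 probe sets of the design clusters TaAffx.128896 (17, sorted by WT signal) and TaAffx.6593 (2), in the WT assay (left) and the 3'IVT assay (right). Filled circles are listed 50S ribosomal proteins, open diamonds are unlisted, colour gives the orientation letter, and grey shading covers values up to the highest of 63 reporter genes. Above the threshold at 0 lie 7 probe sets in the WT assay and 12 in the 3'IVT assay, beside 0.367% and 17.3% of all wheat probe sets.

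The orientation of the design sequence, given by the letter A (antisense) or S (sense) in a probe set name, was not part of the selection. The letter A was carried by 3 of the 7 (L2 8.A1, L14 and L33), against 10 of the other 103 listed pairs and 10643 of the 61115 wheat probe sets. The 3 A-lettered probe sets had WT log2 signals of 18.21 to 18.63 and the 4 S-lettered ones 15.97 to 17.86, so the letters did not overlap in the WT assay. The narrowest gap, between L33 and L2 (22.S1_s), was 0.35. The letters overlapped in the 3'IVT assay, with 10.55 to 13.39 for A and 11.49 to 14.42 for S. With 3 against 4 probe sets of 2 clusters and 1 array per assay, the WT order of the letters has no test. In the other 103 listed pairs the WT excesses of the letters overlapped, at -0.11 to 4.55 for A and -0.44 to 4.46 for S. Over all wheat probe sets the median WT excess was lower for A (-7.40) than for S (-7.13). The 2 unlisted A-lettered probe sets of the cluster had WT excesses of -3.28 and -5.13. Which strand of its gene each probe set reads was not tested.

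The excess in the WT assay less that in the 3'IVT assay compares the assays after each is set to its own bioB value. It was positive for L14 (2.24) and L33 (1.28), and negative for L2 at 8.A1 (-0.26), 2.S1 (-0.50) and 22.S1_s (-0.88), for L23 (-1.47) and for L2 at 3.S1 (-3.94). The SD of this difference between control probe sets of one region was 0.20, less than the range of the 7 values. This SD leaves out differences between regions and between controls. The median was 1.28 for the A-lettered probe sets (3) and -1.17 for the S-lettered ones (4), a gap of 2.46, and the letters did not overlap. L14 and L33 had no S-lettered member, so the letter cannot be told apart from the protein in this gap. Within L2, the only protein with both letters, the A-lettered probe set had -0.26 and the nearest S-lettered one -0.50. In the other 103 listed pairs the median difference was -0.50 for A (10 probe sets) and -1.06 for S (93 probe sets), with overlapping ranges of -4.27 to 3.98 and -5.66 to 3.55. Over all wheat probe sets the order was the opposite, with medians of -5.34 for A (10643) and -4.26 for S (50472). The sign of a single difference depends on the control it is set against, because from bioB to creX the control signals rose by 3.47 log2 units in the WT assay and by 4.97 in the 3'IVT assay. Another control moves all 7 by the same amount and leaves their order as it is. With the highest bioB value the differences were 0.71 for L33, -0.83 for L2 at 8.A1 and -1.07 at 2.S1. With the creX median they were 2.26 for L33 and turned positive for L2 at 8.A1 (0.72), 2.S1 (0.48) and 22.S1_s (0.10). On a scale of percentiles within each array all 7 differences were positive, from 0.11 (L2, 3.S1) to 10.9 percentile points (L14).

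**Figure D4:**
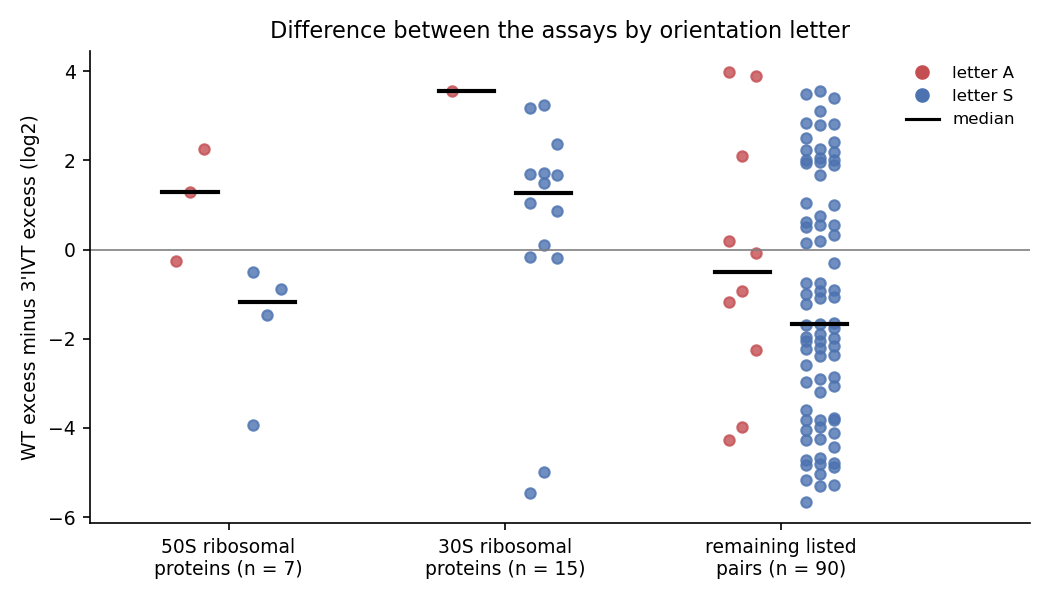
WT excess minus 3'IVT excess (log2 units, y axis) of single probe sets, split by orientation letter. Shown are 7 probe sets for 50S ribosomal proteins, 15 for chloroplast 30S ribosomal proteins of both lists and the 90 remaining listed pairs. Black lines are medians. Among the 50S proteins the A-lettered probe sets lie at -0.26 and above and the S-lettered ones at -0.50 and below.

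The small subunit offers the closest comparison. Of 9 plastid genes for large subunit proteins and 12 for small subunit proteins that were sought, 4 and 7 were represented in the study's lists, by 7 and 15 probe sets, and none was found by gene synonym in the annotation. All 15 probe sets of the 30S subunit were above the WT threshold and 14 above the 3'IVT threshold. The median excess in the WT assay was 2.67 for the 50S and 3.39 for the 30S probe sets, and in the 3'IVT assay it was 2.28 for the 50S and 1.67 for the 30S probe sets. The difference between the assays had a median of -0.50 for the 50S and 1.50 for the 30S probe sets. It was positive for 2 of 7 and 11 of 15, beside 44 of all 110 listed pairs and 5434 of the 61115 wheat probe sets. These are not independent readings, since the 7 probe sets belong to 2 design clusters and the 15 to 6. The 30S set includes S2 probe sets of the antisense-specific list. Over its 13 listed pairs alone the median was 1.50, and 9 were positive. With the creX median in place of the lowest bioB the difference was positive for 5 of 7 50S and 13 of 15 30S probe sets. The medians were then 0.48 for the 50S and 2.48 for the 30S probe sets. The ranges over bioB overlapped, at -3.94 to 2.24 for the 50S and -5.45 to 3.56 for the 30S probe sets, and since both sets were chosen on these signals no test was made. The 30S extremes were S15, a ribosomal RNA-binding protein, with the highest WT excess of 4.37 at TaAffx.128617.18.S1_x_at, and S7, which helps to build the head of the small subunit, with the lowest WT excess of 0.53 and the highest 3'IVT excess of 5.99 at TaAffx.3720.1.S1_at. The lowest 3'IVT excess, -0.04, was that of S2 at TaAffx.128946.1.A1_at. S18, the plastid neighbour of L33, had log2 signals of 18.62 in the WT assay and 9.89 in the 3'IVT assay (TaAffx.107897.1.S1_at), beside 18.21 and 11.44 for L33.

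For each 50S probe set the nearest wheat probe set outside the 7 by its excess on both arrays was found, as a likeness over only 2 arrays. For L33 it was S11 (TaAffx.129824.9.S1_x_at, 0.35 log2 units away), for L2 (22.S1_s) it was S15 (TaAffx.128617.17.S1_s_at, 0.52), and for L14 it was chain H of the NAD(P)H-quinone oxidoreductase (TaAffx.107764.1.S1_at, 0.19). For L2 (3.S1) it was the photosystem I apoprotein A2 (TaAffx.49006.1.A1_at, 0.21) and for L23 an ATP synthase probe set (TaAffx.128565.9.S1_at, 0.34). L2 (2.S1) lay nearest to a putative senescence-associated protein (TaAffx.144000.1.S1_s_at, 0.36) and L2 (8.A1) to a transcript of unknown function (TaAffx.128565.28.S1_x_at, 0.49). Of these 7 neighbours none was in the design clusters of the 50S proteins. This follows largely from the selection, since the listed 50S probe sets were left out of the search. The unlisted ones of their clusters were all below the WT threshold. Within 0.5 log2 units, again leaving out the 7, there were 8 wheat probe sets around L2 (3.S1), 4 around L23 and 2 each around L14 and L33. There was 1 each around L2 (2.S1) and L2 (8.A1), and none around L2 (22.S1_s).

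Ribosomal proteins outside the plastid lists could be named for 5 probe sets, and none of these was above both thresholds. The cytosolic 40S proteins S3a (Ta.28603.1.A1_at, WT log2 16.31 and 3'IVT log2 7.21) and S9 (Ta.24981.1.S1_at, 15.71 and 8.50) are in the antisense-specific list and passed the WT threshold alone. That list was drawn for WT signal alone by the study's own measures, so this follows largely from the selection. It is not fixed by it, since the chloroplast S2 probe set TaAffx.128946.4.S1_at of the same list passed both, with excesses of 0.67 and 0.56. A gene annotated as RPL9, with the synonym CL9, a name of the nuclear-encoded chloroplast 50S protein L9 in Arabidopsis, was in neither list and passed the 3'IVT threshold alone (Ta.14183.1.S1_at, WT log2 10.53 and 3'IVT log2 12.04). RPS29 passed neither, at Ta.30687.2.S1_x_at (9.75 and 8.99) and Ta.24254.3.S1_x_at (2.81 and 7.99).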

How the data were processed

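The authors deposited 1 linear signal intensity per probe set and array, made with MAS5 according to the submitters' processing notes, which scales each array on its own. The 2% trimmed means of the 61290 deposited signals were 500.2 in the WT assay and 500.3 in the 3'IVT assay. Build and aligner do not apply. The study's lists rest on RMA summaries and Present calls, neither used here as values. Their putative functions gave the members. The members, lists and comparisons were chosen with earlier results of these data known. The log2 signal was taken without pseudocount or filter, less the lowest of 9 bioB probe sets per array. The counts leave out 111 control and 64 reporter gene probe sets. For the reporter background 1 reporter above both thresholds was left out. A pooled SD within control regions served as spread. Named probe sets were all members, cluster probe sets above a threshold or extreme, 30S extremes and nearest neighbours, and any other was named with its values known. Counting was tested on simulated data. Gene names came from the platform annotation and RefSeq (IWGSC CS RefSeq v2.1). Python 3.11.15, numpy 2.4.6, pandas 2.3.3 and matplotlib 3.10.9 were used. Sequences of the probes and of the plastid genes were not used here.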

Additional observations from a re-analysis of the deposited data

How the results depend on the processing

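With the highest bioB value as threshold 4 members were above both thresholds and above the WT threshold (L14, L33 and the 8.A1 and 22.S1_s probe sets of L2), and 4 probe sets of the design clusters were above the WT threshold. L14 passed in the 3'IVT assay by only 0.01 log2 units. With the median bioB value 5 members were above both. Counting design clusters once gave 2, and the bioC median, an alternative chosen after seeing the data, left 2 members, both of L2. The median WT excess was 1.72 with the median and 1.26 with the highest bioB value, 2.16 without shared probe sets and 1.63 after quantile normalization, and the median 3'IVT excess was 1.84 and 1.44 with the median and highest bioB value. The gap between A-lettered and S-lettered members was 2.75 without shared probe sets. As percentiles within each array, the difference between the assays was positive also for L2 (5.88, 1.4, 0.11 and 1.23 percentile points at 2.S1, 22.S1_s, 3.S1 and 8.A1) and L23 (4.11), since few probe sets lie above the WT members. With the creX median, also chosen after seeing the data, the difference turned positive for L2 at 2.S1 (0.48), 22.S1_s (0.10) and 8.A1 (0.72). With the median bioB value it was 1.72 for L14, 0.76 for L33, -0.78, -1.02, -1.4 and -4.46 for L2 at 8.A1, 2.S1, 22.S1_s and 3.S1, and -1.99 for L23. No sign changed with the other bioB values, the median of all controls or log2(signal + 16). With 1 array per assay no error between samples can be given, and array depth is not defined. No paired analysis was possible because each assay has 1 array and no test was made.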
